A study of Oryza sativa with 24 samples.

Results

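The cold response of anthers of Nipponbare, a japonica rice (Oryza sativa) whose genome is the rice reference, was followed in 6 of the 24 libraries of the series. In the 3 cold libraries, plants at booting had been held at 12 °C for 4 days from the early microspore stage, the time just after meiosis when tetrads release their microspores. In the 3 control libraries, Nipponbare anthers at booting had received no treatment. All plants shared a greenhouse with days of 25 °C and nights of 19 °C, with 20 plants per pot and side shoots removed. A limit of 1 cm, recorded as AD, is given for cold and control libraries alike. The remaining 18 libraries held anthers of Sasanishiki, PL9 and Lambayeque1 under the same pair of conditions, 3 libraries per group. The 6 libraries were chosen by their labels alone. The titles number 3 libraries per group, while the text of the series speaks of 2 replicates. Whether the libraries came from separate plants is not in the labels, so the p-values below measure the spread between libraries, which may be technical. Unless stated otherwise, that spread was estimated over all 8 groups of the series, the other 3 lines included. When the untreated anthers were collected relative to the cold ones is not stated, so cold and developmental time cannot be told apart.

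In the rice anther, the tapetum is the innermost wall layer, which feeds the developing microspores and supplies the proteins and lipids of the pollen wall before it degenerates. Cold at the young microspore stage is known in rice to disturb the tapetum and sugar delivery and to lower pollen fertility. Abscisic acid, a stress hormone also made in anthers, acts through receptors that block clade A protein phosphatases 2C. This frees SnRK2 kinases, which activate bZIP factors and their targets, such as the dehydrins. The phosphatase genes are themselves known to be induced by the hormone.

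Each deposited file gave 1 abundance value per row, called TPM in its header and here called the signal, since each column of the 6 libraries summed to more than TPM values can. The files give no read counts, so the depth is unknown. Of 37910 identifiers, 32511 stood on 1 row and were used. The other 5399 filled several rows, on which 99.67% of the values were equal between Nipponbare control libraries 1 and 2, against 0% on rows that stood alone. They were left out of all values below except those given with repeated rows summed. There, values shared between libraries can make the spread too small. Between 18478 and 18589 identifiers had a signal of at least 1 in the cold libraries, against 18979 to 19303 in the control libraries. The top 20 identifiers of a library held 24.9%, 21.2% and 27% of its signal in the cold libraries, against 9.6%, 9.9% and 10.9% in the control libraries. Libraries of the same group correlated at 0.952 to 0.976 over the genes tested, and no pair of a cold and a control library exceeded 0.914. OsMADS16, OsMADS4 and OsMADS2, MADS-box genes of lodicule and stamen identity that mark the anther here, summed to 2286 to 2519 in the cold libraries and 2554 to 2841 in the control libraries. None of the 3 was at 0 in any of the 6 libraries, and none passed the test below. After quantile normalization OsMADS2 (-0.85, adjusted p = 0.00465) and OsMADS16 (-0.78, adjusted p = 0.0291) passed.

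Cold and control anthers differed in 5944 of 22495 genes, 26.4% of those tested (limma on log2(signal + 1), Benjamini-Hochberg adjusted p below 0.05). The signal was higher in cold anthers for 2702 genes (12.0%) and lower for 3242 (14.4%). Genes that fell did so by more: the median log2 change was 0.98 among those that rose and -1.15 among those that fell. Changes of at least 1 on the log2 scale were found for 1295 genes that rose and 1883 that fell, 14.1% of all tested. Changes of at least 4 were found for 15 that rose and 61 that fell. In 26 genes every cold library was below a signal of 1 while every control library was at 10 or above, and the reverse held for 1 gene. The 3 cold and the 3 control values did not overlap in 41.9% of the genes tested, and in 5677 of the 5944 that passed. The median change over all genes tested was 0.00, so no shift of all genes was subtracted. All log2 changes are cold minus control of log2(signal + 1), and for genes of low signal they are smaller than the change of the signal itself.

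**Figure D1:**
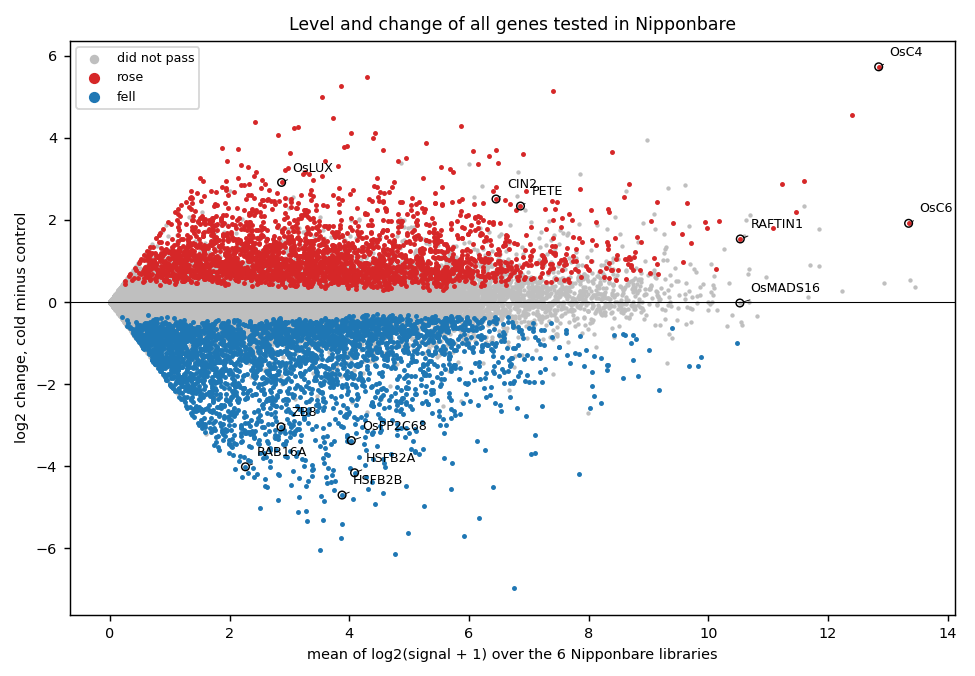
Each point is 1 of the 22495 genes tested in Nipponbare. The horizontal axis is the mean of log2(signal + 1) over the 6 libraries, the vertical axis the log2 change, cold minus control, and red and blue mark genes that rose or fell. OsC4 stands apart at the upper right, with a high mean level and a log2 change of 5.73, while HSFB2B and HSFB2A lie among the largest falls at moderate levels and OsMADS16 lies at -0.02.

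Known genes were read in 43 lists of pathways and cell type markers, whose 204 members on 1 row and above the filter on low values are counted below. Of these, 74 passed (36.3%), 20 higher and 54 lower in cold anthers, with a median change of -0.23. Of all genes tested, 26.4% passed, 12.0% higher and 14.4% lower, and the counts of each list are to be read beside these shares. Members on several rows (117), below the filter (20) or with a doubtful identifier (9) were not tested. A gene is named only where its chromosome and gene order match the reference table. In bulk anthers, fewer cells of a type and less RNA per cell cannot be told apart.

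The 2 largest rises among named genes, of OsC4 and OsAP25, were of tapetum genes. Of 6 measured proteases and lipid transfer proteins of the tapetum, 4 rose and 0 fell, with a median change of 1.87 beside 0.00 over all genes tested. OsC4 (Os08g0546300), an anther lipid transfer protein, had a signal of 55274, 32388 and 86245 in the cold libraries, against 1163, 809 and 1103 in the control libraries. Its lowest cold library was far above its highest control library (log2 change 5.73, SE 0.84, adjusted p = 6.63e-05). OsC4 took 6.11%, 4.29% and 8.19% of the summed signal in the 3 cold libraries, where it ranked the highest of all identifiers, against 0.17%, 0.12% and 0.18% in the 3 control libraries. OsC6 (Os11g0582500), which carries lipids from the tapetum to the pollen wall, was abundant in both groups, with 27265, 19985 and 15241 in the cold libraries, against 5303, 4399.5 and 6615 in the control libraries. Every cold value exceeded every control value (log2 change 1.92, SE 0.54, adjusted p = 0.0135). OsC6 did not pass without cold library 1, or control library 2 (left out 1 at a time, adjusted p = 0.055 to 0.0603), with no filter on low values (0.182) or after quantile normalization (0.653). Its change after quantile normalization was 0.29.

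RAFTIN1 (Os08g0496800), a protein of the bodies that carry sporopollenin out of the tapetum, had 2986, 2343 and 2298 in the cold libraries, against 809.6, 712 and 1144 in the control libraries. The groups did not overlap (log2 change 1.53, SE 0.26, adjusted p = 0.000303). OsAP25 (Os03g0186900), an aspartic protease linked to tapetal cell death, had 576, 1678 and 1748 in the cold libraries, against 101, 33.8 and 239.7 in the control libraries. The 3 cold values lay above the 3 control values, but both groups were scattered (log2 change 3.65, SE 1.31, adjusted p = 0.0462). OsAP25 did not pass without cold library 1, 2 or 3, or control library 1 or 2 (left out 1 at a time, adjusted p = 0.056 to 0.168), with no filter on low values (0.0623), with a pseudocount of 0.1 (0.0575), after quantile normalization (0.0656) or with repeated rows summed (0.0629). OsAP37, another such protease, had 31.4, 53.2 and 132 in the cold libraries, against 48.3, 5.15 and 16.3 in the control libraries, and the groups overlapped (log2 change 1.83, SE 1.25, adjusted p = 0.304). OsCP1, a cysteine protease, had a log2 change of 0.41 (adjusted p = 0.739).

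Of 6 measured factors that drive the tapetum programme, 1 rose and 0 fell, beside 12.0% and 14.4% of all genes tested. Their median change was -0.20. EAT1 (Os04g0599300), a bHLH factor that activates OsAP25 and OsAP37, had 159.6, 217 and 263 in the cold libraries, against 132, 70.1 and 134 in the control libraries. The groups did not overlap, and the rise was moderate (log2 change 0.95, SE 0.34, adjusted p = 0.0474). EAT1 did not pass without cold library 2 or 3, or control library 1 or 2 (left out 1 at a time, adjusted p = 0.057 to 0.222), in the 6 Nipponbare libraries alone (0.0615), with no filter on low values (0.0608), with a pseudocount of 0.1 (0.0503), after quantile normalization (0.151) or with repeated rows summed (0.0573). UDT1, an early bHLH factor of the tapetum, had 69.5, 30.1 and 49.8 in the cold libraries, against 57.7, 69.7 and 43.7 in the control libraries. Its values overlapped (log2 change -0.25, SE 0.42, adjusted p = 0.714). TIP2, which acts upstream of EAT1, was at 37.5, 34.2 and 41.4 in the cold libraries, against 42.5, 41.7 and 42.5 in the control libraries (log2 change -0.16, SE 0.20, adjusted p = 0.59). PTC1, a PHD-finger factor of late tapetum, had a change of -0.86 (adjusted p = 0.52), and MSP1, a receptor kinase that limits the number of sporogenous cells, had 0.73 (adjusted p = 0.0623). MSP1 passed without control library 3 (adjusted p = 0.0282) or after quantile normalization (0.0309).

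None of the 7 measured genes of sporopollenin synthesis and export passed in either direction, although all 7 changes were positive, with a median of 0.90. CYP703A3 (Os08g0131100), the hydroxylase that makes in-chain hydroxylated lauric acid for sporopollenin, had 499, 955 and 2196 in the cold libraries, against 392, 172 and 391 in the control libraries. The lowest cold value stood above the highest control value (log2 change 1.77, SE 1.47, adjusted p = 0.409). This SE pools the spread of all 8 groups, among them the PL9 cold libraries with 0.418, 1405 and 226. The marker genes of the tapetum, which include OsC4, OsC6, RAFTIN1, EAT1, UDT1 and CYP703A3, summed to 55919 to 106293 in the cold libraries and 6232 to 9432 in the control libraries. Most of the sum in the cold libraries is OsC4 and OsC6. Genes of meiosis were low in both groups, and 2 of 7 measured fell while 0 rose, beside 14.4% and 12.0% of all genes tested. The median change of the 7 was 0.12, with 4 changes positive and 3 negative. OsDMC1A (Os12g0143800), the recombinase of meiotic chromosomes, had 5.08, 3.87 and 3.50 in the cold libraries, against 9.502, 11.9 and 11.4 in the control libraries (log2 change -1.22, SE 0.29, adjusted p = 0.00474). OsSPO11-1, which makes the meiotic double-strand breaks, had 3.63, 3.41 and 3.19 in the cold libraries, against 5.60, 4.48 and 6.86 in the control libraries (log2 change -0.58, SE 0.15, adjusted p = 0.00902). In neither gene did the groups overlap. OsSPO11-1 did not pass without control library 3 (adjusted p = 0.0519) or in the 6 Nipponbare libraries alone (0.0687). The 5 measured meiotic markers summed to 10.6 to 12.1 in the cold libraries and 18.4 to 20.2 in the control libraries. Most of this sum in both groups is OsDMC1A and OsSPO11-1. MEL1, an Argonaute of the germ line, had 2.23, 3.41 and 2.89 in the cold libraries, against 2.56, 3.38 and 1.06 in the control libraries, and its groups overlapped.

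**Figure D2:**
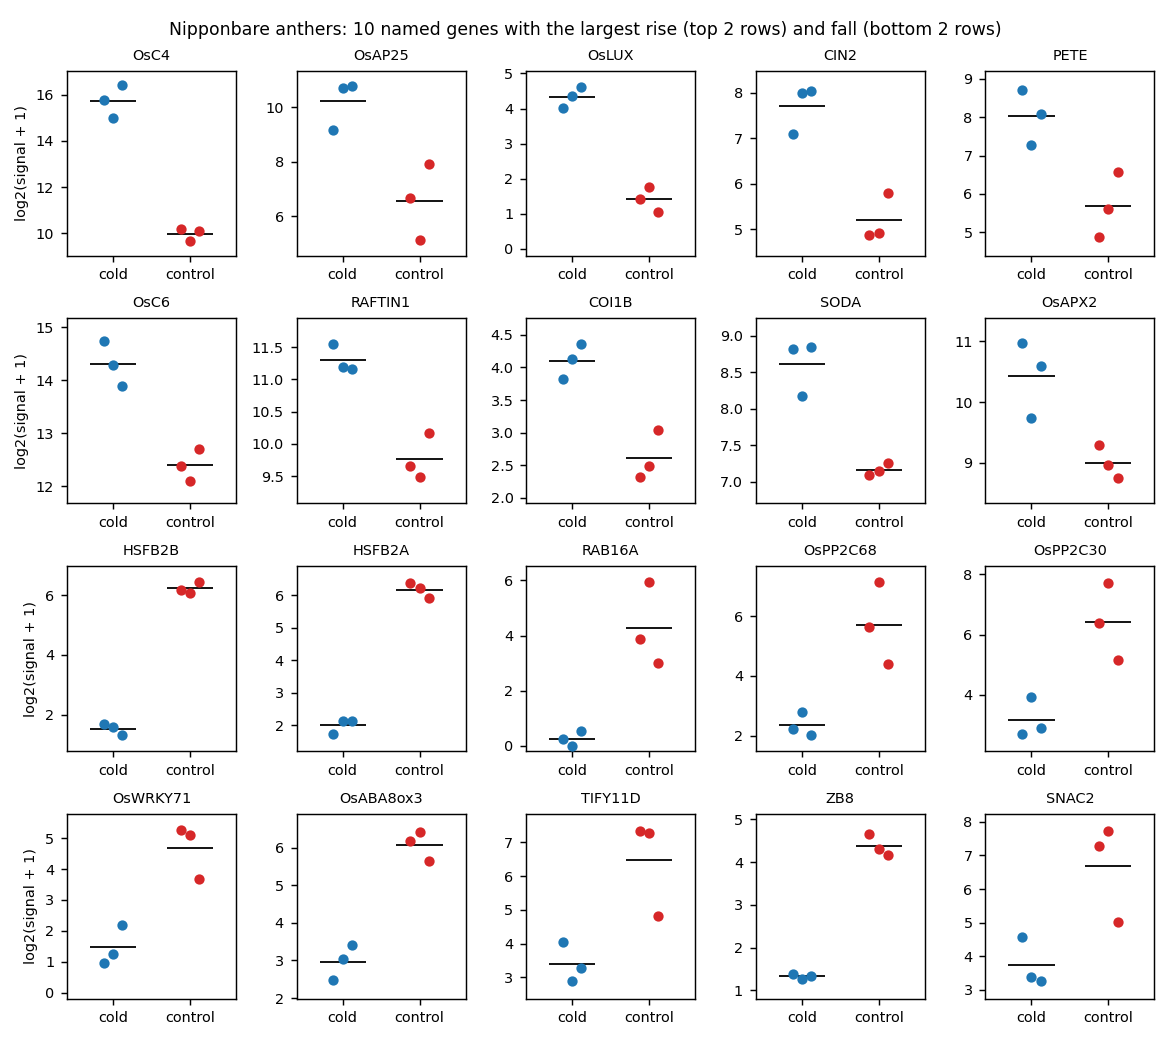
The 20 named genes with the largest rise or fall, with log2(signal + 1) on each vertical axis, a point for each library and a line for the mean of 3. Cold libraries stand on the left in blue and control libraries on the right in red, and each panel has its own scale. The 20 were chosen among genes whose groups did not overlap, so the lack of overlap in the panels follows from the choice. In OsC4 the lowest cold library has a signal of 32388 and the highest control library 1163, and in HSFB2B the highest cold library has 2.18 and the lowest control library 66.3.

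Most sugar and starch genes measured did not pass. CIN2 (Os04g0413500), a cell wall invertase that splits sucrose outside the cell, had 136, 254 and 259.9 in the cold libraries, against 28.4, 29.2 and 54.7 in the control libraries. Its lowest cold value was above its highest control value (log2 change 2.51, SE 0.53, adjusted p = 0.00174). CIN1, its relative, was at 5.90, 4.72 and 3.50 in the cold libraries, against 2.78, 2.95 and 4.02 in the control libraries, with overlap (log2 change 0.41, SE 0.29, adjusted p = 0.31). Over the 4 invertases measured, 1 rose and 0 fell, beside 12.0% and 14.4% of all genes tested. None of 6 sugar transporters and the sugar-partitioning regulator CSA passed. SWEET11, a sucrose exporter, had 208, 230.0 and 317 in the cold libraries, against 199, 208 and 273 in the control libraries, and the groups overlapped (log2 change 0.14, SE 0.31, adjusted p = 0.783). SUT5, a sucrose importer, had a change of 0.15 (adjusted p = 0.948). Of 7 starch synthesis genes, 3 rose and 0 fell, beside 12.0% and 14.4% of all genes tested. Their median change was 0.44. ISA1 (Os08g0520900), an isoamylase that trims the branches of starch, had 27.6, 33.2 and 23.9 in the cold libraries, against 9.90, 10.7 and 13.3 in the control libraries, without overlap (log2 change 1.25, SE 0.19, adjusted p = 0.000106). OsTPP2, which makes trehalose, had 60.0, 45.5 and 36.6 in the cold libraries, against 40.8, 50.0 and 34.9 in the control libraries, and its groups overlapped (log2 change 0.16, SE 0.24, adjusted p = 0.667).

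Several genes of the abscisic acid pathway fell in cold anthers. Of 6 enzymes that make or break down the hormone, 3 fell and 0 rose, beside 14.4% and 12.0% of all genes tested. Their median change was -1.04. OsNCED3 (Os03g0645900), the rate-limiting dioxygenase of its synthesis, had 0.121, 0.468 and 0.350 in the cold libraries, against 5.35, 7.06 and 2.67 in the control libraries (log2 change -2.13, SE 0.63, adjusted p = 0.0174). OsZEP, zeaxanthin epoxidase at the start of the route, had 13.2, 11.02 and 14.4 in the cold libraries, against 29.1, 29.3 and 26.5 in the control libraries (log2 change -1.08, SE 0.23, adjusted p = 0.00197). OsABA8ox3 (Os09g0457100), a hydroxylase that breaks the hormone down, had 4.57, 7.19 and 9.57 in the cold libraries, against 72.0, 84.0 and 49.1 in the control libraries (log2 change -3.11, SE 0.66, adjusted p = 0.00174). Synthesis and breakdown genes thus fell side by side, and in none of the 3 did the groups overlap. OsNCED3 did not pass without cold library 1, or control library 1 or 2 (left out 1 at a time, adjusted p = 0.0573 to 0.0704). OsABA8ox2, a second hydroxylase, had 35.4, 31.1 and 18.1 in the cold libraries, against 38.6, 39.7 and 47.3 in the control libraries (log2 change -0.60, SE 0.49, adjusted p = 0.404).

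All 5 measured clade A protein phosphatases 2C fell, with a median of -2.76. OsPP2C68 (Os09g0325700) had 3.69, 5.87 and 3.09 in the cold libraries, against 48.6, 140.0 and 19.9 in the control libraries. Its highest cold value was below its lowest control value (log2 change -3.37, SE 0.68, adjusted p = 0.00118). OsPP2C30 (Os03g0268600) had 5.41, 14.2 and 6.46 in the cold libraries, against 82.3, 211 and 34.3 in the control libraries (log2 change -3.25, SE 0.76, adjusted p = 0.00384). OsPP2C49, the lowest of the 5, had 0.486, 1.04 and 0.376 in the cold libraries, against 12.4, 19.3 and 3.73 in the control libraries (log2 change -2.76, SE 0.67, adjusted p = 0.00491). In each of these 3 genes control library 2 was the highest and control library 3 the lowest of the control libraries. OsPP2C08 had 9.504, 15.2 and 12.7 in the cold libraries, against 65.6, 103 and 41.8 in the control libraries (log2 change -2.33, SE 0.64, adjusted p = 0.0112). OsPP2C06, the most abundant, had 44.6, 66.0 and 47.8 in the cold libraries, against 184, 234 and 118 in the control libraries (log2 change -1.71, SE 0.37, adjusted p = 0.00203). No cold value reached a control value in either. OsPP2C08 did not pass without control library 2 (adjusted p = 0.0553).

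The SnRK2 kinases, not all of which are held inactive by the phosphatases, did not move together. Of 8 measured, 1 rose and 3 fell, beside 12.0% and 14.4% of all genes tested, with a median of -0.15. SAPK6 (Os02g0551100) had 27.3, 24.6 and 25.5 in the cold libraries, against 65.1, 94.1 and 43.8 in the control libraries (log2 change -1.29, SE 0.22, adjusted p = 0.000274). SAPK10 (Os03g0610900) had 9.26, 6.46 and 9.24 in the cold libraries, against 2.55, 2.57 and 3.64 in the control libraries (log2 change 1.25, SE 0.30, adjusted p = 0.00516). The groups of both were apart, in opposite directions. SAPK2 had 27.9, 30.1 and 38.7 in the cold libraries, against 80.3, 48.3 and 80.5 in the control libraries (log2 change -1.07, SE 0.37, adjusted p = 0.0387), and SAPK4 had 65.1, 68.9 and 67.1 in the cold libraries, against 88.1, 112 and 89.5 in the control libraries (log2 change -0.51, SE 0.13, adjusted p = 0.00569). SAPK2 did not pass without cold library 1, 2 or 3, or control library 1 or 3 (left out 1 at a time, adjusted p = 0.0515 to 0.13) or with no filter on low values (0.0505). SAPK8 had 76.9, 68.1 and 78.8 in the cold libraries, against 76.4, 79.0 and 66.4 in the control libraries, and the groups overlapped (log2 change 0.01, SE 0.12, adjusted p = 0.956). OsbZIP23 (Os02g0766700), a bZIP factor that kinases of this family activate, had 15.4, 17.2 and 13.7 in the cold libraries, against 77.9, 108 and 41.2 in the control libraries, with no overlap (log2 change -2.13, SE 0.57, adjusted p = 0.00955).

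The dehydrins, hydrophilic proteins that protect drying or cold cells and are classic targets of the pathway, were lower in cold anthers or did not pass. Of 5 measured, 2 fell and 0 rose, beside 14.4% and 12.0% of all genes tested. The median of the 5 changes was -1.98, and 4 were negative. RAB16D had the 1 positive change and did not pass. RAB16A (Os11g0454300) had 0.193, 0 and 0.434 in the cold libraries, against 13.6, 60.0 and 7.06 in the control libraries. It was near 0 in cold anthers and scattered in control anthers, where library 2 was the highest (log2 change -4.01, SE 1.41, adjusted p = 0.0418). RAB16A did not pass without cold library 1, 2 or 3, or control library 1 or 2 (left out 1 at a time, adjusted p = 0.0796 to 0.161), with no filter on low values (0.0567), with a pseudocount of 5 (0.148) or with repeated rows summed (0.0575). RAB16B and RAB16C, which lie next to it on the chromosome and resemble it in sequence, had changes of -2.16 (adjusted p = 0.118) and -1.68 (adjusted p = 0.281), and reads could be split between the copies. RAB16B passed in the 6 Nipponbare libraries alone (adjusted p = 0.0147) or with a pseudocount of 0.1 (0.035), and RAB16C in the 6 Nipponbare libraries alone (adjusted p = 0.0371). LIP9 (Os02g0669100), a dehydrin induced by cold in seedlings, had 48.1, 41.4 and 52.5 in the cold libraries, against 199, 221 and 153 in the control libraries (log2 change -1.98, SE 0.67, adjusted p = 0.0355). Its cold values were below all control values. LIP9 did not pass without cold library 1, 2 or 3, or control library 1, 2 or 3 (left out 1 at a time, adjusted p = 0.0532 to 0.0953). SalT, a lectin induced by salt, had 0.407, 0.0943 and 0.229 in the cold libraries, against 0.629, 5.56 and 4.61 in the control libraries (log2 change -1.66, SE 0.51, adjusted p = 0.021), and did not pass without cold library 2 or 3, or control library 2 or 3 (left out 1 at a time, adjusted p = 0.0553 to 0.107) or with a pseudocount of 5 (0.127). OsLti6a, a small membrane protein induced by low temperature in seedlings, had 41.9, 48.2 and 50.2 in the cold libraries, against 76.5, 111 and 63.8 in the control libraries (log2 change -0.79, SE 0.31, adjusted p = 0.0699). It passed in the 6 Nipponbare libraries alone (adjusted p = 0.0383) or after quantile normalization (0.0491).

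**Figure D3:**
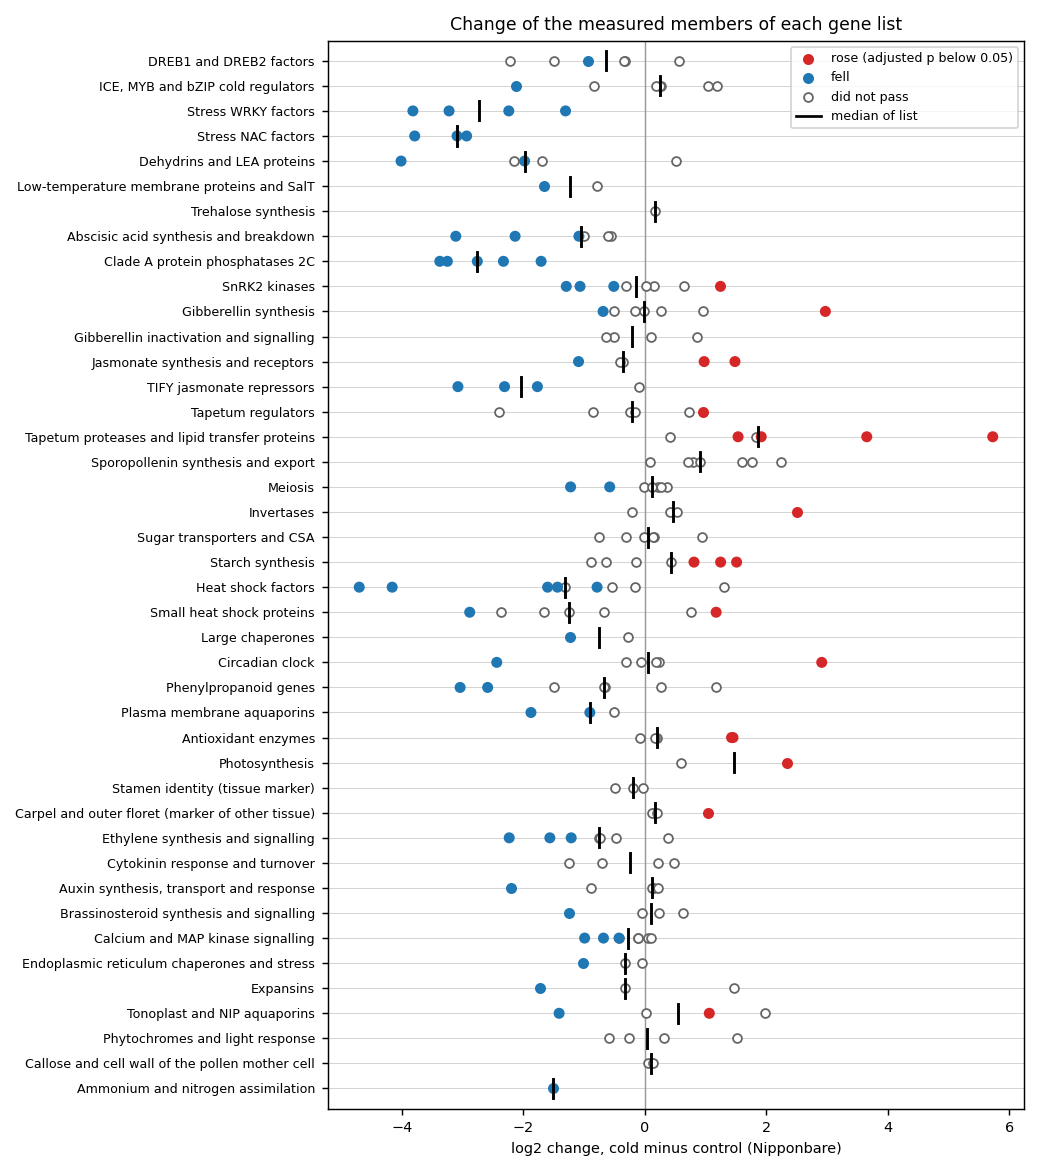
Each row is a gene list and each point a measured member, placed by its log2 change, cold minus control, in Nipponbare. Red and blue points rose or fell at adjusted p below 0.05, open points did not pass, and the black bar is the median of the list. All 5 clade A phosphatases, all 4 WRKY factors and all 3 NAC factors lie to the left of 0 and passed, while 4 of the 6 tapetum proteases and lipid transfer proteins lie to the right and passed.

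The DREB1 transcription factors of the cold response in rice leaves were low in these anthers. Of 6 measured DREB1 factors, which bind the dehydration-responsive element, 1 fell and 0 rose, beside 14.4% and 12.0% of all genes tested. OsDREB2A, also listed, stood on several rows and was not tested. OsDREB1A (Os09g0522200) had 0.658, 0.0607 and 0.221 in the cold libraries, against 1.61, 1.15 and 7.53 in the control libraries (log2 change -1.49, SE 0.60, adjusted p = 0.0713). OsDREB1B (Os09g0522000) had 5.72, 1.95 and 2.06 in the cold libraries, against 2.26, 1.62 and 1.24 in the control libraries, with overlap (log2 change 0.56, SE 0.72, adjusted p = 0.614). OsDREB1C was listed at 0 in all 3 cold libraries and had 3.07, 5.67 and 2.77 in the control libraries (adjusted p = 0.0901). OsDREB1C passed in the 6 Nipponbare libraries alone (adjusted p = 0.00172) or with a pseudocount of 0.1 (0.0153), and OsDREB1A passed with a pseudocount of 0.1 (adjusted p = 0.0443). No DREB1 gene named here rose after the 4 days of cold. Among 7 ICE, MYB and bZIP regulators, OsbZIP23 was the only member to pass. OsMYB3R-2, a MYB factor whose overexpression raises cold tolerance in rice, had 23.6, 26.4 and 25.1 in the cold libraries, against 23.7, 19.4 and 19.5 in the control libraries, and the groups overlapped (log2 change 0.26, SE 0.17, adjusted p = 0.272).

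Stress-linked WRKY and NAC factors fell without exception among those measured. All 4 WRKY factors fell (median -2.73), as did all 3 NAC factors (median -3.09). OsWRKY71 (Os02g0181300), a repressor of gibberellin signalling, had 0.951, 1.36 and 3.57 in the cold libraries, against 37.9, 33.2 and 11.8 in the control libraries (log2 change -3.22, SE 0.83, adjusted p = 0.0074). OsWRKY24 had 0.778, 0.402 and 0.566 in the cold libraries, against 7.31, 8.15 and 4.39 in the control libraries (log2 change -2.24, SE 0.44, adjusted p = 0.000998). SNAC2 (Os01g0884300), a NAC factor that raises cold and salt tolerance when overexpressed, had 22.9, 9.503 and 8.59 in the cold libraries, against 154, 210.0 and 31.6 in the control libraries (log2 change -2.93, SE 0.54, adjusted p = 0.000588). In OsWRKY71, OsWRKY24 and SNAC2 the groups did not overlap, and control library 3 was the lowest of the control libraries.

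In the jasmonate pathway, both receptor genes measured rose and 3 of 4 repressors fell. COI2, another receptor gene, stood on several rows and was not tested. COI1A (Os01g0853400), a receptor subunit, had 42.2, 49.4 and 56.0 in the cold libraries, against 19.5, 27.4 and 27.0 in the control libraries (log2 change 0.98, SE 0.17, adjusted p = 0.000361). COI1B (Os05g0449500), its close copy, had 13.1, 16.5 and 19.4 in the cold libraries, against 3.98, 4.61 and 7.23 in the control libraries (log2 change 1.48, SE 0.23, adjusted p = 9.99e-05). Neither overlapped. OsAOS1 (Os03g0767000), allene oxide synthase of jasmonate synthesis, had 37.2, 36.8 and 30.2 in the cold libraries, against 76.6, 64.4 and 84.5 in the control libraries (log2 change -1.09, SE 0.26, adjusted p = 0.00401). Over the 5 genes of synthesis and reception, 2 rose and 1 fell. Of 4 TIFY repressors, which jasmonate removes through the receptor, 3 fell and 0 rose, with a median of -2.04. TIFY11D (Os10g0392400) had 15.4, 6.40 and 8.78 in the cold libraries, against 159.8, 155 and 27.3 in the control libraries (log2 change -3.08, SE 0.72, adjusted p = 0.00385). TIFY11C had 43.4, 52.9 and 39.8 in the cold libraries, against 278, 300.0 and 140.2 in the control libraries (log2 change -2.31, SE 0.37, adjusted p = 0.000147). TIFY10C had 36.4, 18.1 and 11.3 in the cold libraries, against 88.7, 85.8 and 43.4 in the control libraries (log2 change -1.77, SE 0.51, adjusted p = 0.0144). All cold values lay below the control values in these 3, and control library 3 was the lowest control in each. TIFY10C did not pass without cold library 3, or control library 1 or 2 (left out 1 at a time, adjusted p = 0.0557 to 0.0843). TIFY11A, which lies next to TIFY11C, had 147, 145 and 153 in the cold libraries, against 219, 193 and 94.4 in the control libraries, and the groups overlapped (log2 change -0.10, SE 0.23, adjusted p = 0.801).

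Of 7 gibberellin synthesis genes, 1 rose and 1 fell, near the 12.0% and 14.4% of all genes tested that did so. OsKO2, kaurene oxidase, had 17.74, 28.7 and 22.1 in the cold libraries, against 33.5, 33.7 and 43.6 in the control libraries (log2 change -0.69, SE 0.19, adjusted p = 0.013), and did not pass without cold library 1, or control library 3 (left out 1 at a time, adjusted p = 0.0635 to 0.082) or in the 6 Nipponbare libraries alone (0.0521). OsGA20ox3, an oxidase of the last steps, had 50.5, 70.5 and 65.4 in the cold libraries, against 43.4, 53.8 and 57.0 in the control libraries (log2 change 0.27, SE 0.33, adjusted p = 0.594). None of the 4 genes of gibberellin inactivation and signalling passed, and SLR1, the DELLA repressor, had 46.8, 89.0 and 64.0 in the cold libraries, against 55.0, 53.7 and 72.7 in the control libraries (log2 change 0.10, SE 0.38, adjusted p = 0.881). Of 7 ethylene genes, 3 fell and 0 rose, beside 14.4% and 12.0% of all genes tested. ACS1 (Os03g0727600), an enzyme that makes the ethylene precursor, had 0.230, 0.563 and 0.454 in the cold libraries, against 6.78, 9.49 and 2.54 in the control libraries (log2 change -2.23, SE 0.55, adjusted p = 0.00581). ACS2, its relative, had 0.0708, 0.0650 and 0.0786 in the cold libraries, against 3.99, 1.27 and 0.349 in the control libraries (log2 change -1.21, SE 0.42, adjusted p = 0.0378), and did not pass without cold library 1, 2 or 3 (left out 1 at a time, adjusted p = 0.0721 to 0.0855), with a pseudocount of 5 (0.0692) or after quantile normalization (0.0545). The groups of both enzymes were apart, at low levels. GH3-8 (Os07g0592600), which conjugates auxin to amino acids, had 6.79, 12.5 and 9.35 in the cold libraries, against 44.8, 53.0 and 41.3 in the control libraries (log2 change -2.20, SE 0.42, adjusted p = 0.000824), the only 1 of 5 auxin genes to pass. The median of the 5 was 0.12. BRD1 (Os03g0602300), an oxidase of brassinosteroid synthesis, had 15.01, 19.2 and 25.2 in the cold libraries, against 50.2, 65.5 and 32.5 in the control libraries (log2 change -1.25, SE 0.34, adjusted p = 0.00994), the only 1 of 4 brassinosteroid genes to pass. The median of the 4 was 0.1. The shares of auxin and brassinosteroid genes that passed are near the 26.4% of all genes tested. BRD1 did not pass without cold library 1, or control library 2 (left out 1 at a time, adjusted p = 0.0523 to 0.0575). None of 4 cytokinin genes passed.

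The 2 largest falls among named genes were of heat shock factors of class B. Of 9 measured heat shock factors, 5 fell and 0 rose, beside 14.4% and 12.0% of all genes tested. Their median change was -1.32. HSFB2B (Os08g0546800) had 2.18, 2.01 and 1.51 in the cold libraries, against 71.7, 66.3 and 85.1 in the control libraries. The 3 cold values were close together and far below all control values (log2 change -4.70, SE 0.51, adjusted p = 3.11e-06). HSFB2A (Os04g0568700) had 2.35, 3.44 and 3.39 in the cold libraries, against 81.2, 73.8 and 59.3 in the control libraries, likewise without overlap (log2 change -4.16, SE 0.48, adjusted p = 4.94e-06). Class B factors lack the activation domain of class A factors and are known in plants as repressors or co-regulators. HSFA3 (Os02g0527300), a class A factor linked to drought in Arabidopsis, had 7.09, 5.92 and 5.65 in the cold libraries, against 22.3, 21.2 and 18.9 in the control libraries (log2 change -1.60, SE 0.33, adjusted p = 0.00161). HSFA6A had 0.599, 0.238 and 0.192 in the cold libraries, against 2.75, 4.24 and 1.38 in the control libraries (log2 change -1.44, SE 0.39, adjusted p = 0.0108). HSFA9 had 14.6, 14.04 and 11.9 in the cold libraries, against 28.4, 22.9 and 21.1 in the control libraries (log2 change -0.78, SE 0.21, adjusted p = 0.00963). None of these overlapped. HSFA6A did not pass without control library 2 (adjusted p = 0.062) or with a pseudocount of 5 (0.144). HSFC1B had 28.2, 22.1 and 31.5 in the cold libraries, against 9.25, 23.3 and 4.91 in the control libraries, with overlap (log2 change 1.30, SE 0.51, adjusted p = 0.0662), and passed without control library 2 (adjusted p = 0.0157). HSFA9 did not pass without control library 1 (adjusted p = 0.0563).

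Of 7 small heat shock proteins, 1 rose and 1 fell, with a median of -1.25. These shares are near the 12.0% of all genes tested that rose and the 14.4% that fell. HSP17.7 (Os03g0267200) had 44.8, 23.3 and 34.2 in the cold libraries, against 14.3, 14.4 and 13.5 in the control libraries (log2 change 1.17, SE 0.33, adjusted p = 0.013), and did not pass without cold library 1 (adjusted p = 0.0729). HSP24.1 had 26.5, 8.39 and 3.14 in the cold libraries, against 66.1, 28.6 and 71.8 in the control libraries (log2 change -2.36, SE 0.90, adjusted p = 0.0603), and passed without cold library 1 (adjusted p = 0.0322), in the 6 Nipponbare libraries alone (0.0415) or with a pseudocount of 5 (0.0435). HSP82 (Os08g0500700), a member of the HSP90 family, had 182, 115 and 137 in the cold libraries, against 367, 252 and 405 in the control libraries, without overlap (log2 change -1.23, SE 0.31, adjusted p = 0.00582). bZIP60 (Os07g0644100), a factor of the endoplasmic reticulum stress response, had 30.1, 23.0 and 25.0 in the cold libraries, against 56.6, 48.8 and 55.7 in the control libraries. The 3 cold values were all below the 3 control values (log2 change -1.02, SE 0.15, adjusted p = 7.63e-05).

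OsLUX (Os01g0971800, named PCL1 in the reference table), a MYB-type factor of the evening complex of the circadian clock, had 15.2, 19.4 and 23.3 in the cold libraries, against 1.68, 2.38 and 1.08 in the control libraries. The lowest cold value stood well above the highest control value (log2 change 2.91, SE 0.45, adjusted p = 9.71e-05). Over the 6 clock genes measured, 1 rose and 1 fell, near the 12.0% and 14.4% of all genes tested that did so. OsPRR1, another evening gene, had 25.4, 25.5 and 21.0 in the cold libraries, against 22.8, 19.4 and 18.7 in the control libraries. OsELF3-1, a further member of the evening complex, had 13.1, 13.6 and 12.5 in the cold libraries, against 10.1, 10.3 and 13.8 in the control libraries. The groups of OsPRR1 and OsELF3-1 overlapped. The hour of collection is not given in the labels used here. PETE (Os06g0101600), plastocyanin of the photosynthetic chain, had 421, 154 and 271 in the cold libraries, against 28.5, 48.1 and 94.6 in the control libraries, without overlap (log2 change 2.34, SE 0.42, adjusted p = 0.000402). CAB1R, a light-harvesting protein, had 607, 105 and 332 in the cold libraries, against 118, 165 and 319.8 in the control libraries (log2 change 0.59, SE 0.85, adjusted p = 0.659). These 2 green tissue markers summed to 259 to 1028 in the cold libraries and 147 to 414 in the control libraries. PETE is itself part of this sum, so the sum cannot bear on the PETE result. The part of green tissue in that result was not tested.

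Of 5 measured enzymes that remove reactive oxygen species, 2 rose and 0 fell, beside 12.0% and 14.4% of all genes tested. SODA (Os05g0323900), the mitochondrial manganese superoxide dismutase, had 452, 287 and 459.9 in the cold libraries, against 135, 140.5 and 151 in the control libraries (log2 change 1.45, SE 0.29, adjusted p = 0.00121). OsAPX2 (Os07g0694700), a cytosolic ascorbate peroxidase, had 1996, 856 and 1538 in the cold libraries, against 628, 501 and 428 in the control libraries (log2 change 1.43, SE 0.36, adjusted p = 0.00615). Both were apart from their controls. OsAPX1, the other cytosolic ascorbate peroxidase measured, had 685, 553 and 627 in the cold libraries, against 713, 811 and 489 in the control libraries, and the groups overlapped (log2 change -0.08, SE 0.22, adjusted p = 0.823).

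Among the phenylpropanoid genes, 2 of 7 fell and 0 rose, beside 14.4% and 12.0% of all genes tested. ZB8 (Os02g0627100), a phenylalanine ammonia-lyase at the entry of the pathway, had 1.63, 1.42 and 1.54 in the cold libraries, against 24.4, 18.6 and 17.0 in the control libraries. The cold values differed little from each other and were all below the control values (log2 change -3.04, SE 0.33, adjusted p = 2.87e-06). CHS1 (Os11g0530600), chalcone synthase of the flavonoid branch, had 146, 258 and 353 in the cold libraries, against 117, 98.7 and 98.3 in the control libraries. The cold values were all above the control values (log2 change 1.18, SE 0.84, adjusted p = 0.33). This SE pools the spread of all 8 groups, among them the PL9 cold libraries with 8.67, 336 and 134. CHS1 passed in the 6 Nipponbare libraries alone (adjusted p = 0.0336). Of 3 plasma membrane aquaporins, which conduct water, 2 fell. PIP1-2 had 246, 384 and 352 in the cold libraries, against 511, 566 and 756 in the control libraries (log2 change -0.90, SE 0.25, adjusted p = 0.0108), and PIP2-4 had 12.3, 32.7 and 57.0 in the cold libraries, against 80.3, 96.9 and 159.7 in the control libraries (log2 change -1.87, SE 0.65, adjusted p = 0.038). PIP1-2 did not pass without cold library 1, or control library 3 (left out 1 at a time, adjusted p = 0.0552 to 0.0685). PIP2-4 did not pass without cold library 1 or 2, or control library 1, 2 or 3 (left out 1 at a time, adjusted p = 0.0571 to 0.198), with no filter on low values (0.0514), with a pseudocount of 0.1 (0.167) or with repeated rows summed (0.0512).

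NIP1-1 (Os02g0232900), an aquaporin of the NIP family, had 829, 784 and 751 in the cold libraries, against 321, 341 and 489.7 in the control libraries (log2 change 1.06, SE 0.29, adjusted p = 0.00975). It did not pass without control library 1 (adjusted p = 0.0504) or after quantile normalization (0.0818). NIP4-1 (Os01g0112400), an abundant relative, had 2288, 3218 and 4259.9 in the cold libraries, against 838, 612 and 984 in the control libraries. The groups did not overlap, yet NIP4-1 did not pass in the fit over 8 groups (log2 change 1.98, SE 1.03, adjusted p = 0.166), and passed in the 6 Nipponbare libraries alone (adjusted p = 0.00842). NIP2-1, a silicon channel of the root, had 0.0760, 0.0699 and 0 in the cold libraries, against 1.95, 3.06 and 0.806 in the control libraries (log2 change -1.41, SE 0.48, adjusted p = 0.0347), and did not pass without cold library 1, 2 or 3, or control library 1 or 2 (left out 1 at a time, adjusted p = 0.0638 to 0.138) or with a pseudocount of 5 (0.255). Of 3 expansins, which loosen cell walls, EXPA5 fell, with 35.9, 55.5 and 36.6 in the cold libraries, against 197, 274 and 51.8 in the control libraries. Its lowest control value lay within the range of the cold values (log2 change -1.73, SE 0.50, adjusted p = 0.0156). EXPA5 did not pass without cold library 1 or 3, or control library 1 or 2 (left out 1 at a time, adjusted p = 0.0547 to 0.0974) or in the 6 Nipponbare libraries alone (0.0655).

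Of 8 calcium and MAP kinase genes, 3 fell and 0 rose, beside 14.4% and 12.0% of all genes tested. COLD1 (Os04g0600800), a regulator of G-protein signalling tied to chilling tolerance in japonica rice, had 24.2, 24.5 and 22.6 in the cold libraries, against 35.4, 32.2 and 29.3 in the control libraries. The groups were apart by a narrow margin (log2 change -0.42, SE 0.14, adjusted p = 0.0302). COLD1 did not pass without cold library 1 or 3, or control library 1 or 2 (left out 1 at a time, adjusted p = 0.0638 to 0.126), in the 6 Nipponbare libraries alone (0.0655) or after quantile normalization (0.0774). CIPK23, a kinase of the calcium sensors, had 123, 189.7 and 157 in the cold libraries, against 249.9, 227 and 269 in the control libraries (log2 change -0.68, SE 0.23, adjusted p = 0.0328), and did not pass without cold library 1 or 3, or control library 1, 2 or 3 (left out 1 at a time, adjusted p = 0.0501 to 0.156). MPK6, a MAP kinase, had 31.9, 42.1 and 46.3 in the cold libraries, against 37.0, 35.5 and 37.8 in the control libraries, and the groups overlapped (log2 change 0.11, SE 0.16, adjusted p = 0.664).

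HSP82 was the only 1 of 2 large chaperones to pass, and bZIP60 the only 1 of 3 genes of the endoplasmic reticulum. Of the lists not yet described, the 1 measured gene of nitrogen assimilation fell, and none of 4 phytochrome and light genes or of 3 callose and cell wall genes of the pollen mother cell passed. No gene of proline synthesis or metallothioneins was measured on 1 row above the filter. Markers of other floral organs were low in all 6 libraries. The 5 genes summed to 8.02 to 14.8 in the cold libraries and 3.94 to 6.42 in the control libraries. DL, the carpel gene, had 0.114, 0.579 and 0.574 in the cold libraries, against 0.210, 0.412 and 0.183 in the control libraries. OsMADS6 (Os02g0682200), which acts in several floral organs, carried most of the sum, with 8.78, 5.69 and 12.0 in the cold libraries, against 3.84, 4.73 and 2.50 in the control libraries (log2 change 1.04, SE 0.32, adjusted p = 0.0225), and it did not pass without cold library 1 or 3, or control library 1 or 3 (left out 1 at a time, adjusted p = 0.0516 to 0.116) or with a pseudocount of 0.1 (0.0512). The part of tissue outside the anther in the results was not tested. Among genes without a supported name, Os05g0209301 had 62.7, 144 and 245 in the cold libraries, against 4.52, 0.354 and 2.45 in the control libraries (log2 change 5.48, SE 1.07, adjusted p = 0.00089). Os05g0342000 had 213, 75.9 and 42.9 in the cold libraries, against 0.943, 1.58 and 1.55 in the control libraries (log2 change 5.26, SE 0.59, adjusted p = 3.85e-06). Os01g0314800 had 9.85, 6.81 and 9.58 in the cold libraries, against 2166, 1603 and 510.5 in the control libraries, the largest fall of the 4 such genes shown (log2 change -6.97, SE 0.77, adjusted p = 3.61e-06). Os01g0955100 had 3.01, 1.83 and 1.99 in the cold libraries, against 196, 290.0 and 208 in the control libraries (log2 change -6.14, SE 0.58, adjusted p = 6.3e-07). These 4 were chosen by the size of their change among genes that passed without overlap.

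The Nipponbare response was then set against the mean response of Sasanishiki, PL9 and Lambayeque1, by an interaction contrast in the same limma fit. No control library is shared between the lines. The responses differed in 818 genes, 3.64% of those tested, with the Nipponbare change the higher in 281 (1.25%) and the lower in 537 (2.39%). Of these, 672 also passed in Nipponbare itself and 146 did not, and in 325 the Nipponbare change and the mean of the other lines had opposite signs. The count was 450 without cold library 1, 458 without cold library 3 and 323 without control library 1. It was 498 with a pseudocount of 0.1 and 1971 with repeated rows summed. The last count includes rows that share values between libraries. Among the 204 list members, 7 differed, and 156 had the same sign in Nipponbare as in the mean of the other lines.

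ZB8 had the smallest adjusted p among the 4 named genes that differed. Its signal was 1.63, 1.42 and 1.54 in Nipponbare cold libraries, against 24.4, 18.6 and 17.0 in Nipponbare control libraries. In the other lines the means were 0.208 ± 0.0238 in cold and 3.11 ± 2.61 in control anthers of Sasanishiki, 0.217 ± 0.376 and 0.333 ± 0.272 in cold and control anthers of PL9, and 0.820 ± 0.533 and 3.53 ± 1.31 in cold and control anthers of Lambayeque1 (SD, n = 3 each). The Nipponbare controls were thus above those of the other lines, and the difference in response was -2.02 (SE 0.38, adjusted p = 0.00464). With a pseudocount of 0.1 it did not pass (adjusted p = 0.293). 4CL3 (Os02g0177600), a 4-coumarate CoA ligase of the same pathway, had 62.5, 85.7 and 72.7 in the cold libraries, against 57.9, 52.7 and 71.7 in the control libraries in Nipponbare, with overlap. Its log2 change was 0.27 in Nipponbare, beside 1.93 in Sasanishiki, 2.09 in PL9 and 1.05 in Lambayeque1, a difference of -1.41 (SE 0.31, adjusted p = 0.0137). The 4CL3 difference did not pass without cold library 1 (adjusted p = 0.0561).

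GH3-8 changed by -2.20 in Nipponbare, beside -0.63 in Sasanishiki, 0.43 in PL9 and -0.97 in Lambayeque1, a difference of -1.81 (SE 0.49, adjusted p = 0.0456). HSFC2A (Os02g0232000), a heat shock factor of class C, had 1.54, 1.204 and 1.07 in the cold libraries, against 3.40, 13.0 and 1.92 in the control libraries in Nipponbare (log2 change -1.32, SE 0.53, adjusted p = 0.0754), and passed without control library 3 (adjusted p = 0.0268) or with a pseudocount of 0.1 (0.0448). In the other lines the control anthers averaged 65.7 ± 20.6 in Sasanishiki, 35.4 ± 19.2 in PL9 and 15.9 ± 12.6 in Lambayeque1 (SD, n = 3 each). The HSFC2A change was -5.74 in Sasanishiki, -3.06 in PL9 and -2.10 in Lambayeque1, whose value lay nearest to that of Nipponbare. The difference between Nipponbare and their mean was 2.31 (SE 0.62, adjusted p = 0.0423). The GH3-8 difference did not pass without cold library 1 or 3, or control library 1, 2 or 3 (left out 1 at a time, adjusted p = 0.0738 to 0.154), with no filter on low values (0.0543) or with a pseudocount of 0.1 (0.0576). The HSFC2A difference did not pass without cold library 1, 2 or 3, or control library 1 or 3 (left out 1 at a time, adjusted p = 0.0654 to 0.144) or with no filter on low values (0.0522).

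**Figure D4:**
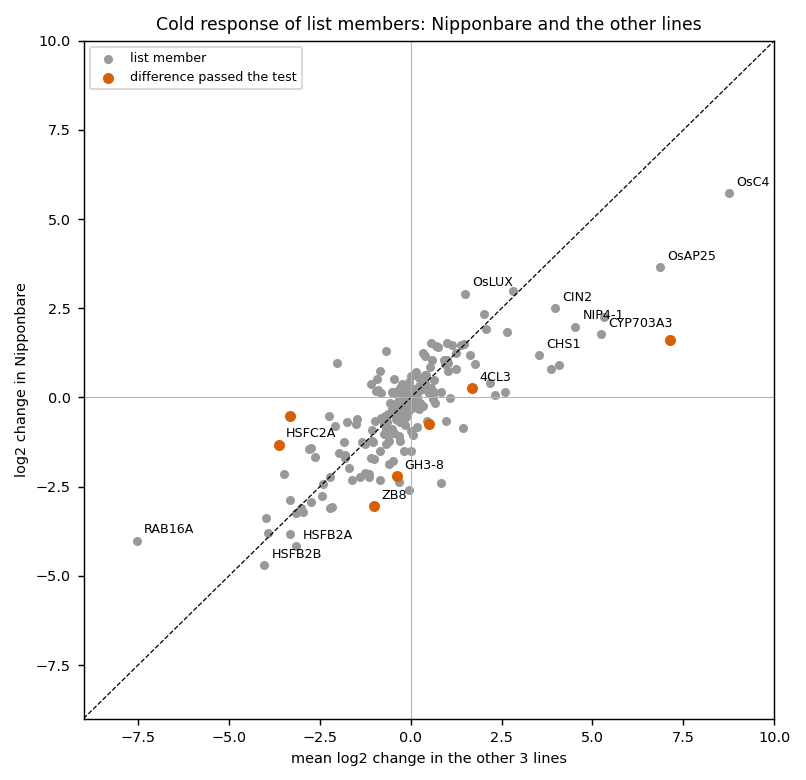
Each point is 1 of the 204 measured list members. The horizontal axis is the mean log2 change, cold minus control, of Sasanishiki, PL9 and Lambayeque1, the vertical axis the log2 change in Nipponbare, and the dashed line marks equal changes. Orange points are the 7 members whose difference passed, among them ZB8, GH3-8 and 4CL3 below the line and HSFC2A above it.

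Among the control anthers, OsC4 and CYP703A3 had their highest means in Nipponbare. OsC4 averaged 57969 ± 27029 in Nipponbare cold libraries and 1025 ± 189.7 in Nipponbare control libraries (SD, n = 3 each). Its control anthers averaged 8.83 ± 2.57 in Sasanishiki, 28.0 ± 17.65 in PL9 and 100.2 ± 87.1 in Lambayeque1 (SD, n = 3 each). The OsC4 change was 5.73 in Nipponbare, 9.92 in Sasanishiki, 8.64 in PL9 and 7.73 in Lambayeque1. The difference of -3.04 (SE 0.97, adjusted p = 0.0918) between Nipponbare and the mean of the other lines did not pass. For CYP703A3, the control anthers averaged 318 ± 127 in Nipponbare, while they averaged 0.573 ± 0.372 in Sasanishiki, 0.506 ± 0.109 in PL9 and 32.4 ± 14.3 in Lambayeque1 (SD, n = 3 each). The CYP703A3 change was 1.77 in Nipponbare, 8.07 in Sasanishiki, 5.67 in PL9 and 1.95 in Lambayeque1, so the Lambayeque1 value lay near that of Nipponbare. In PL9, CYP703A3 had 0.418, 1405 and 226 in the cold libraries, against 0.570, 0.380 and 0.566 in the control libraries, so 1 cold library stayed at the level of the PL9 controls. The difference of -3.47 (SE 1.70, adjusted p = 0.277) between Nipponbare and the mean of the other lines did not pass. The control means of OsC6 and RAFTIN1 were not highest in Nipponbare. OsC6 averaged 5439 ± 1114 in Nipponbare controls, beside 9501 ± 5196 in Sasanishiki, 9327 ± 6376 in PL9 and 4691 ± 1077 in Lambayeque1 (SD, n = 3 each). RAFTIN1 averaged 889 ± 227 in Nipponbare controls, beside 1161 ± 39.9 in Sasanishiki, 2023 ± 458 in PL9 and 1331 ± 82.6 in Lambayeque1 (SD, n = 3 each). Over the 7 sporopollenin genes the median change was 0.90 in Nipponbare and 4.07 for the mean of the other lines, and the difference passed in 1. The untreated levels of the lines were not tested against each other here.

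**Figure D5:**
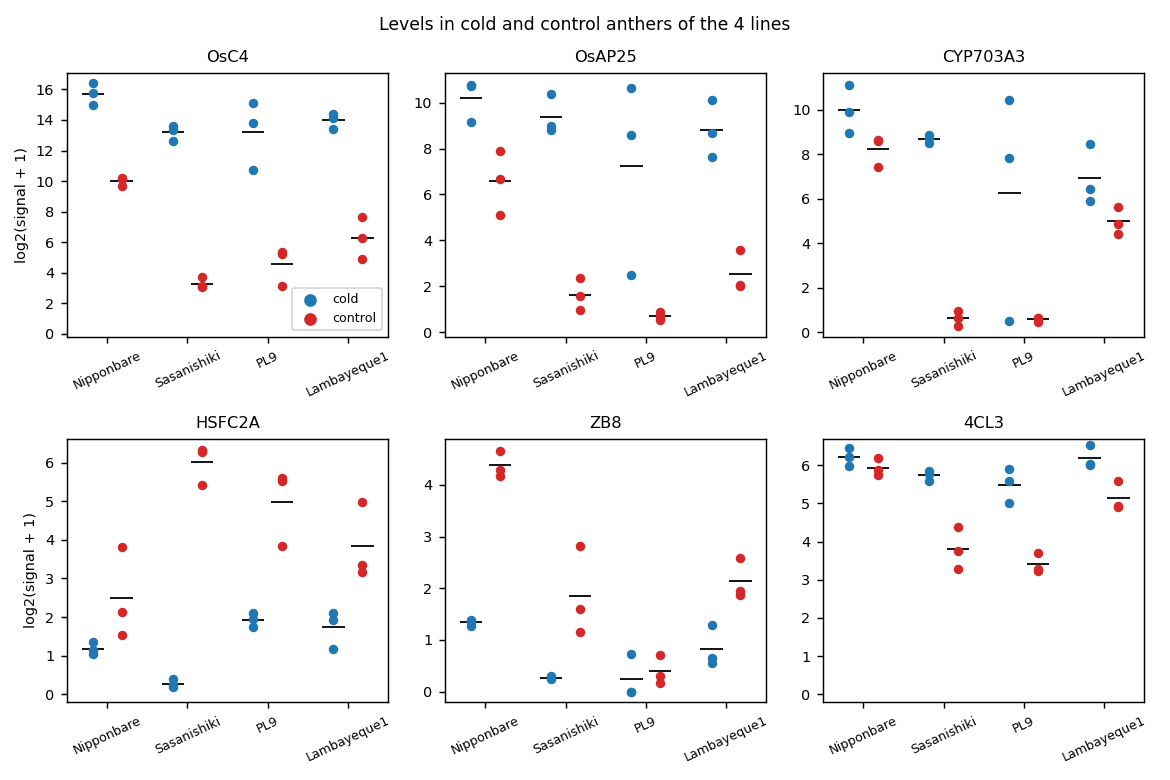
Levels of 6 genes as log2(signal + 1) in cold (blue, left of each pair) and control (red, right) anthers of the 4 lines, with a point for each library and a line for the mean of 3. OsC4, OsAP25 and CYP703A3 had a higher signal in every Nipponbare control library than in any other control library, as did ZB8 and 4CL3, while HSFC2A averaged 6.12 in Nipponbare control anthers, the lowest mean of the 4 lines.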

How the data were processed

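Anther RNA of Nipponbare was sequenced in 3 cold and 3 control libraries, grouped by their titles. Libraries were stranded (dUTP), per the labels' protocols. Tools named in the submitters' processing notes include kallisto 0.46.2 and sleuth 0.30.0, and the build named there is IRGSP-1.0. The deposited values are an abundance signal, named TPM in the file headers, on a scale set by the authors. Because the columns sum to more than a TPM column can, they were treated as a signal and not, as first planned, as TPM; the test was the same, and the depth is unknown. Reads of close copies may be split between them.

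Identifiers on 1 row with a signal of at least 1 in at least 3 of 24 libraries were tested (22495). Values were taken as log2(signal + 1), with a pseudocount of 1. Group means of all 8 groups were fitted with limma 3.58.1 in R 4.3.3 (eBayes with a trend, 16 residual degrees of freedom), so the groups share 1 estimate of the spread. P-values were adjusted by Benjamini-Hochberg over all genes tested, with a threshold of 0.05. The scripts were tested on simulated data. Python 3.11.15 drew the figures.

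Members and gene lists (31 lists, and 12 added after the files were opened) were chosen with earlier results of these data known. Of the first 251 identifiers, 182 matched the reference table (assembly ASM3414082v1) by name, chromosome and relative position (tolerance 2% of the gene order). Named genes are the 10 that rose and the 10 that fell most among those past the threshold without overlap, up to 4 members per list that passed and the most abundant that did not, up to 5 per direction for the difference from other lines, and markers by list. OsDREB1A, OsDREB1C, OsCP1, TIP2, PTC1, MSP1, SUT5, OsPP2C06, RAB16C, HSFA9, HSFC1B and OsELF3-1 were named outside this rule, after their values were seen, to complete their lists. Pseudocounts, filters, scalings, the 6 libraries alone, a replicate block, summed rows and leaving out each library were tried.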

Additional observations from a re-analysis of the deposited data

Results flagged for a closer look

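The response of Nipponbare differed from the mean response of the other 3 lines in 818 genes by the interaction contrast in limma (Benjamini-Hochberg adjusted p below 0.05). Named genes among them were HSFC2A, with a difference of 2.31 (adjusted p = 0.0423), ZB8 with -2.02 (adjusted p = 0.00464), GH3-8 with -1.81 (adjusted p = 0.0456) and 4CL3 with -1.41 (adjusted p = 0.0137), each as the log2 change of Nipponbare minus the mean log2 change of the other lines. On the log2(signal + 1) scale, the changes of ZB8 and GH3-8 were negative in Nipponbare and smaller in size in the mean of the other lines. That of HSFC2A was smaller in Nipponbare, and that of 4CL3 was near 0 in Nipponbare and positive in the other lines. ZB8 was low in the other lines, with control means of 3.11 in Sasanishiki, 0.333 in PL9 and 3.53 in Lambayeque1. At such levels this scale shrinks a change, and with a pseudocount of 0.1 the ZB8 difference did not pass (adjusted p = 0.293). The causes of these differences were not tested.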

How the results depend on the processing

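The count of genes past the threshold in Nipponbare, 5944, lay between 4389 and 6962 under the 9 settings that kept all 6 libraries and between 4049 and 5746 with 1 library left out. The 6962, like the 1971 below, came from summing repeated rows, where values shared between libraries can make the spread too small. Quantile normalization turned the split to 3311 higher and 2992 lower, against 2702 and 3242, and moved the median of all genes by 0.04. The count of genes whose response differed from the other lines, 818, was 498 with a pseudocount of 0.1, 1971 with repeated rows summed, and 323 to 884 with 1 Nipponbare library left out. With the replicate number as a block within each line it was 387, and the Nipponbare count was 4389. The numbers are not stated to pair libraries, and same-numbered cold and control libraries of Nipponbare deviated with r = -0.06, -0.268 and -0.146, so the block serves as a check only. With the block, OsC6 (adjusted p = 0.108), OsAP25 (0.0647), RAB16A (0.0643), EAT1 (0.0587), ACS2 (0.0587), COLD1 (0.0875), CIPK23 (0.102) and the differences of 4CL3 (0.0588) and GH3-8 (0.0504) did not pass. Of 64 named genes that passed, 39 passed in all 15 settings, 25 were lost in at least 1 and 0 changed sign. Genes that did not pass and lay near 0 changed sign in some settings: after quantile normalization SAPK8 (-0.07) and SWEET11 (-0.08), and with 1 library left out SAPK8 (range -0.06 to 0.08), SWEET11 (-0.04 to 0.28), OsTPP2 (-0.02 to 0.33), SLR1 (-0.13 to 0.33), MPK6 (-0.0 to 0.26), SUS3 (-0.01 to 0.24), MEL1 (-0.05 to 0.49), BAK1 (-0.13 to 0.11), UDT1 (-0.52 to 0.07), TIFY11A (-0.47 to 0.13), OsAPX1 (-0.29 to 0.07) and OsMADS16 (-0.07 to 0.03). The cause was not tested. The depth is unknown, which limits what low signals can show.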
